A study of Homo sapiens with 4 samples.

Results

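Genes of pre-mRNA splicing, of the DEAD and DEAH box RNA helicases and of mRNA export were followed after knockdown of MYC in a lymphoma cell line. They were taken by current gene symbol: all that begin with DDX, DHX, SF3A, SF3B, SNRP, SRSF, HNRNP, PRPF, U2AF, THOC or NXF, and ALYREF and SRRM1, without DDX21. Of 43 symbols on the array that met this rule, 42 had a value on at least 2 arrays and are described here, out of 4454 named genes with such values. They were measured by 62 of the 15154 features of the array, 30 genes by 1 feature each and 12 by several. Values on all 4 arrays were present for 40 of the 42, and these entered the test. DDX17 had a value on 1 array and was left out by the rule. No member of the SF3A or NXF families and no SRRM1 had values on 2 arrays.

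The cells were OCI-Ly10, a human lymphoma line that models the activated B-cell class of diffuse large B-cell lymphoma. MYC siRNA cells were electroporated with a pool of siRNAs against MYC at 4 uM. Control cells were electroporated either with 4 uM of an siRNA against Renilla luciferase, which has no target in human cells (control siRNA), or in the electroporation solution without siRNA (no siRNA). Each array compared MYC siRNA cells with 1 control at 1 time, and all 4 combinations were measured once, with control siRNA at 8 h and 24 h, and without siRNA at 6 h and 24 h. All results thus come from 1 line in bulk culture, where less transcript in every cell and a larger loss in part of the cells cannot be told apart. MYC RNA carried the dye Cy5 and control RNA Cy3 throughout, and 0 arrays had the dyes swapped, so a dye bias of single features and a response cannot be told apart.

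Values are ratios of MYC siRNA over control, taken as log2, so that -1 stands for a halved transcript; the sources used here do not state the log base. The direction is likely, not stated either, and rests on the dyes and on MYC itself, which was below 0 on each array. MYC was at -0.94, -0.35, -1.26 and -1.03 in the order above and averaged -0.89 ± 0.39 (SD, n = 4, 53.8% of control). Its adjusted p in limma was 0.0146, and 0.053 without the 6 h array. An exact sign-flip test over the 4 arrays gave p = 0.125 for MYC, the smallest p that 4 arrays allow. The direction was taken in part from MYC, so its fall is partly assumed and these values are no separate check of the knockdown. "Fell", "rose" and every percent of control below take this base and direction; were the ratio turned, fell and rose would change places and each share would become its reciprocal. A ratio gives no level, so genes cannot be ranked by abundance and the line cannot be checked by the presence of its markers. Medians over the 6798 rows with 4 values lay between -0.042 and 0.01 by array, and SDs between 0.262 and 0.416, the widest on the 24 h array against no siRNA. Measured B-cell markers (6 of 7) had a median of 0.15 with a range of -0.06 to 0.41, and 2 of them rose (CD79A, 0.41, and CD74, 0.37). T cell, monocyte and erythroid markers had medians of 0.16 (6 genes), 0.17 (3 genes) and 0.02 (3 genes), and 1 of these rose, the erythroid gene GATA1 (0.48, adjusted p = 0.0204 in limma). The part of dye or cell composition in the results below was not tested.

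Splicing removes introns from pre-mRNA in the spliceosome, which is built from small nuclear RNAs and their proteins. U2AF and the SF3 proteins of the U2 snRNP recognise the 3′ end of the intron, PRPF proteins take part in bringing in and activating the other snRNPs, and DHX helicases drive the rearrangements and take the machine apart. SR proteins mostly favour and hnRNP proteins often oppose the use of an exon. The TREX complex, made of the THOC subunits and the adaptor ALYREF, then hands the spliced mRNA to the export receptor NXF1. MYC and MAX bind the E-box CACGTG, and several splicing factor genes are known as MYC targets in B-cell lymphoma.

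The promoters below are shown because they hold that E-box. RefSeq (GRCh38.p14) gave promoter windows for 39 of the 42 genes, from 250 bases before the start of transcription to 50 after it. CACGTG, which reads the same on the other strand, was found in 5 of them (12.8%), against 13.2% of the 3239 named genes with 4 values and a window, and 8.8% of 27305 genes of the whole table. The 100 bases before the start are printed 5′ to 3′ on the strand of the gene, with the E-box in capitals.
DDX31 (chr9:132669984-132670083, minus strand): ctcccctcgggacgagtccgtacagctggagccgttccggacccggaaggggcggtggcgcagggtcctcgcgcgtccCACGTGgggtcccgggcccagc
DDX5 (chr17:64506639-64506738, minus strand): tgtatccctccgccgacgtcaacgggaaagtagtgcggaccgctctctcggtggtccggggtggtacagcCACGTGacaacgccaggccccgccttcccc
HNRNPD (chr4:82373992-82374091, minus strand): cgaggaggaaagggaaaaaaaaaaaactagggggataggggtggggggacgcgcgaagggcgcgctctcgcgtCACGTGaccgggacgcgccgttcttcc
HNRNPH3 (chr10:68331593-68331692, plus strand): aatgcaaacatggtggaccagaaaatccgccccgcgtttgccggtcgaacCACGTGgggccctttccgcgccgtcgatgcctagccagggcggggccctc
HNRNPM (chr19:8444875-8444974, plus strand): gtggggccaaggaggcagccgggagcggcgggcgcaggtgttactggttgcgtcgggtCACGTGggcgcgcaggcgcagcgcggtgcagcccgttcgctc

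The E-box began 22 bases before the start in DDX31, 27 in HNRNPD, 30 in DDX5, 42 in HNRNPM and 50 in HNRNPH3. Among all 2396 genes with CACGTG in the window, 28.7% had it within 50 bases before the start. That limit equals the farthest position among the 5 genes, so their share within it cannot be set against 28.7%. HNRNPD was the 1 gene of the 5 that fell after MYC siRNA (-0.42). DDX31 stood at -0.22, HNRNPM at -0.13, DDX5 at -0.06 and HNRNPH3 at 0.15, none past the test. The median of the 5 was -0.13, against -0.12 for the 33 other tested genes with a window. A related sequence, CACGCG on either strand (CACGCG or CGCGTG), was found in 15 of the 39 windows (38.5%), against 22.3% of the named genes with 4 values. Genes with it had a median of -0.24, with 4 of 15 lower, and the 23 tested genes without it -0.08, with 3 lower and 1 higher. Of all rows 10.2% were lower and 5.56% higher. The same split was not made for other genes of the array, so it cannot be read as particular to these families. All these motifs are matches of letters and were not tested.

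The genes with the lowest and the highest mean ratio are shown for comparison. Neither the DHX15 nor the DHX36 window held CACGTG.

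DHX15 (chr4:24584555-24584654, minus strand): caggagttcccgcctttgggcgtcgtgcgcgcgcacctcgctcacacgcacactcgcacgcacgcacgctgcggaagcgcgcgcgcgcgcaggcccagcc
DHX36 (chr3:154324488-154324587, minus strand): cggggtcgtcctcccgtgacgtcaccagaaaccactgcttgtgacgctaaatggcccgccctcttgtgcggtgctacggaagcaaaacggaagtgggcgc

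After MYC siRNA, 7 of the 40 tested genes fell, 1 rose and 32 did not pass. The genes that fell were DHX15, which takes spent spliceosomes apart, THOC1 and THOC6 of the export complex, PRPF38B and SRSF10 of the splicing machinery, HNRNPD, which binds AU-rich mRNA, and the helicase gene DDX1. The gene that rose was DHX36, a helicase that unwinds G-quadruplexes. The test asked in limma whether the mean of the 4 ratios differed from 0, over all 6798 rows, with Benjamini-Hochberg adjustment and a threshold of 0.05. Of all rows 15.8% passed, 10.2% lower and 5.56% higher, and of the 40 genes 20%, 17.5% lower and 2.5% higher. The share that passed was thus near that of all rows, and more of it lay on the lower side. At an unadjusted p under 0.05 in limma 14 genes were lower and 2 higher, where 19.6% and 15.8% of all rows were. The median of the 40 means was -0.12, against -0.003 for all rows, and 27 of 40 means were below 0 (67.5%, against 50.5% of all rows). All 4 arrays lay below 0 for 14 genes (35%, against 23.3% of rows) and above 0 for 4 genes (10%, against 19.4%). With any 1 array left out the test had 2 residual degrees of freedom. The number of genes that passed was then 6 without the 8 h array (THOC2, not among the 8, was 1 of them), 0 without the 24 h array against control siRNA, 0 without the 6 h array, and 3 when the 24 h array against no siRNA was dropped. Over all rows it was 441, 4, 0 and 234 in that order. Why these counts differ was not tested. The 8 genes, chosen by their p on these same arrays, kept an unadjusted p of at most 0.0287 (DDX1) in limma with any 1 array left out. Each had the same sign on all 4 arrays, so that its mean could not change sign.

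**Figure D1:**
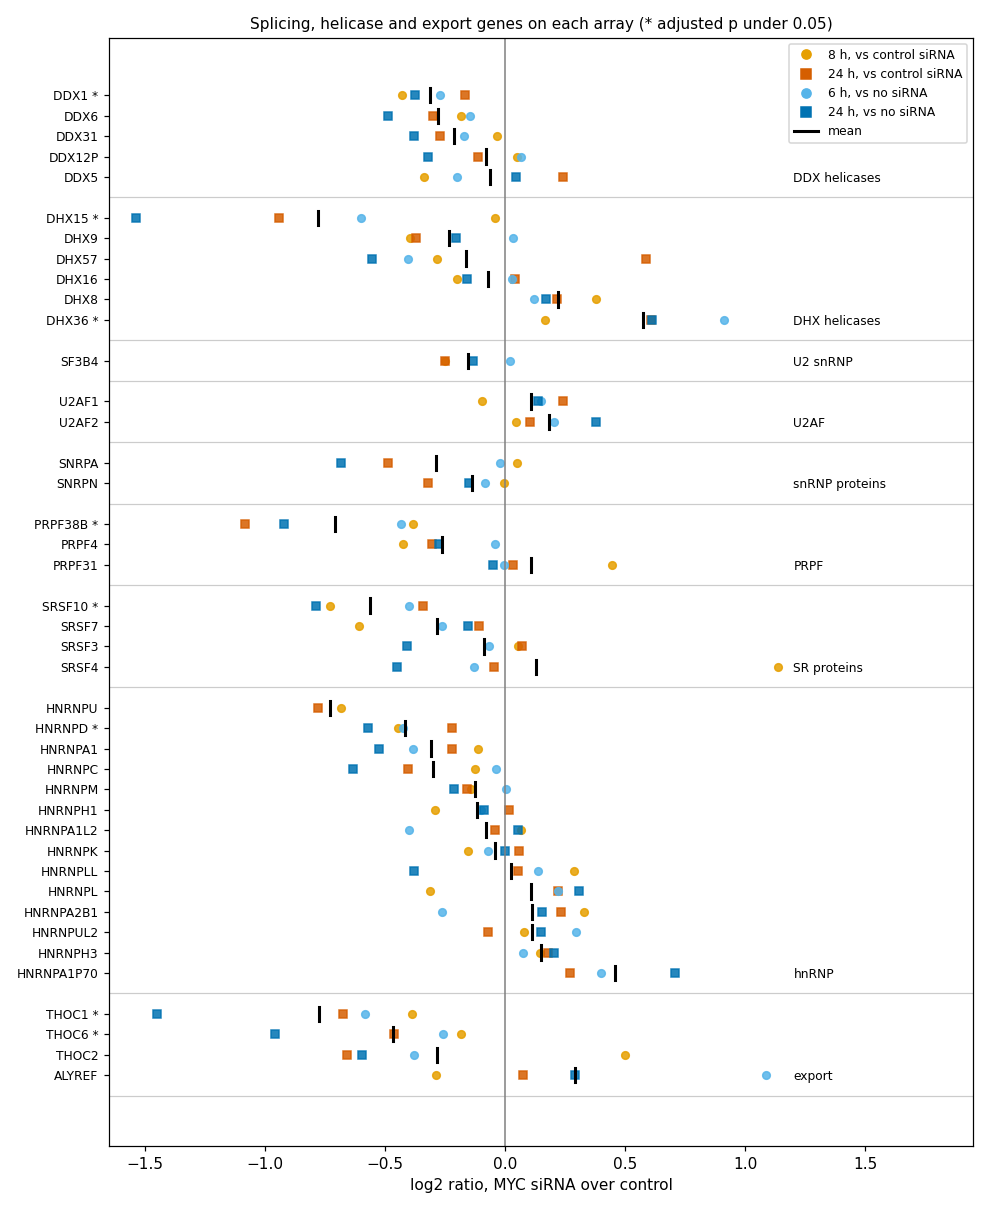
Log2 ratio of MYC siRNA over control (x axis) for the genes except DDX3Y, by family (y axis), with 1 point per array and a black bar for the mean; an asterisk marks an adjusted p under 0.05 in limma. DHX15, THOC1 and PRPF38B reach below -1 on a 24 h array, and DHX36 lies above 0 on each array.

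On single arrays the 40 genes had medians of -0.12 (8 h) and -0.09 (24 h) where the control was control siRNA. Where it was no siRNA, they were -0.07 (6 h) and -0.21 (24 h). All rows had medians of -0.004, 0.01, -0.01 and -0.04 in the same order. Below 0 were 25, 23, 25 and 29 of the 40 genes. Of the 7 genes that fell, 5 had their lowest value on the 24 h array against no siRNA, on which 34.0% of all rows also had theirs and whose values spread most.

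**Figure D2:**
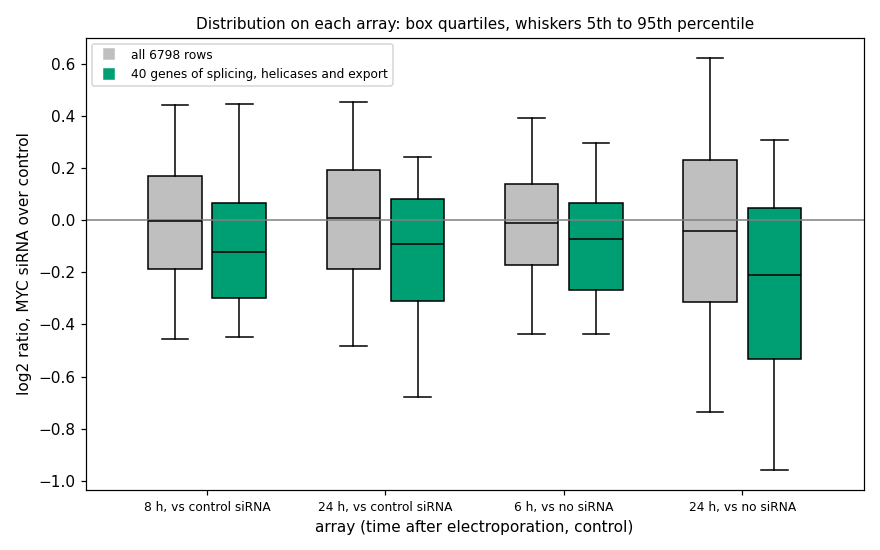
Log2 ratios on each array (x axis: time and control) for all 6798 rows in grey and for the 40 tested genes in green; boxes show quartiles and the median, whiskers the 5th and 95th percentiles. The green median lies below the grey one on each array, with the 2 lowest at -0.21 (24 h, no siRNA) and -0.12 (8 h, control siRNA).

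DHX15 had the lowest mean of the 40 genes. Its ratio was -0.04 (8 h) and -0.94 (24 h) with control siRNA as control, and -0.60 (6 h) and -1.54 (24 h) with no siRNA. Every array lay below 0, but the 8 h array hardly so. The mean of -0.78 (limma SE 0.19, adjusted p = 0.0312) corresponds to 58.2% of control and was the 20th lowest of 6798 rows. Left-out arrays moved it between -0.53 and -1.03. DHX36 was at 0.16 and 0.61 against control siRNA and at 0.91 and 0.61 against no siRNA, early array first. It thus rose on each array, by a mean of 0.57 (limma SE 0.12, adjusted p = 0.0213; 148.8% of control). The other DHX genes did not pass. DHX8, which releases the spliced mRNA, averaged 0.22 with 4 of 4 arrays above 0 (adjusted p = 0.103 in limma). DHX16, which acts before the first step of splicing, averaged -0.07 and DHX9, also called RNA helicase A, -0.24. DHX57 ranged from -0.56 to 0.59, with only the 24 h array against control siRNA above 0.

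Among 6 tested DDX genes, DDX1 fell. It works in tRNA splicing, as part of the tRNA ligase complex. DDX1 was at -0.43 and -0.17 against control siRNA and at -0.27 and -0.38 against no siRNA, early array first, a mean of -0.31 (limma SE 0.09, adjusted p = 0.0408; 80.5% of control). Its 2 features averaged -0.37 and -0.26. The other 5 DDX genes did not pass. DDX6, a helicase of mRNA decapping and P-bodies, was below 0 on 4 of 4 arrays, between -0.15 and -0.49 (mean -0.28, adjusted p = 0.0645 in limma). DDX31, a nucleolar helicase, was also below 0 on each array (mean -0.22). DDX5, a helicase of splicing and transcription, was at -0.34 and -0.20 on the early arrays and at 0.24 and 0.04 at 24 h. The pseudogene DDX12P averaged -0.08 and may share signal with its relatives, and DDX3Y did not pass.

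The 3 tested genes of the THO core of TREX all had means below 0, as did 50.5% of all rows, and 2 of them fell, as did 10.2% of all rows. THOC1 was at -0.39 and -0.68 against control siRNA and at -0.58 and -1.45 against no siRNA, early array first. On each control the 24 h value was the lower, and the mean was -0.78 (limma SE 0.15, adjusted p = 0.0197; 58.4% of control). THOC6 followed the same order with -0.18, -0.47, -0.26 and -0.96, a mean of -0.47 (limma SE 0.13, adjusted p = 0.04; 72.3% of control). With the last of these arrays left out, the mean of THOC6 was -0.30 (adjusted p = 0.0998 in limma). THOC6 missed the threshold with any 1 array left out (limma adjusted p between 0.0525 and 0.109). THOC2, the scaffold of THO, stood apart on the 8 h array at 0.50, while the other arrays gave -0.66, -0.38 and -0.60. Its mean was -0.28 and did not pass (limma adjusted p = 0.258). Without the 8 h array, the only one above 0, it was -0.55 and passed (limma adjusted p = 0.0393), as did 6.49% of all rows. With any other array left out the mean of THOC2 lay between -0.25 and -0.16 and did not pass (limma adjusted p of 0.446 or more). ALYREF, the adaptor that TREX places on mRNA, had a mean of 0.29 that its 2 features did not share, as described further on. With the 6 h array left out this mean was 0.02, and with the 8 h array left out 0.48.

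PRPF38B, a relative of the spliceosome protein PRPF38A, was among the lowest genes. It was at -0.38 and -1.09 against control siRNA and at -0.44 and -0.92 against no siRNA, early array first. The mean of -0.71 (limma SE 0.13, adjusted p = 0.0179) corresponds to 61.2% of control. PRPF4, a protein of the U4/U6 snRNP, was below 0 on 4 of 4 arrays with a mean of -0.26 and did not pass (limma adjusted p = 0.0788). PRPF31, which helps to join U4/U6 with U5, averaged 0.11, with 0.45 at 8 h and values between -0.05 and 0.03 on the other arrays. Without the 8 h array its mean was -0.01.

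SRSF10 fell among the 4 SR protein genes tested. It was at -0.73 and -0.35 against control siRNA and at -0.40 and -0.79 against no siRNA, early array first, so that neither time class was lower than the other. The mean was -0.57 (limma SE 0.10, adjusted p = 0.018; 67.5% of control). SRSF7, which takes part in splicing and as an adaptor for NXF1 in export, averaged -0.28 over 6 features and did not pass (limma adjusted p = 0.0858). Each of its 6 features averaged below 0 and was lowest on the 8 h array, where they lay between -0.81 and -0.41, against -0.41 to 0.10 on the other arrays; without the 8 h array the mean was -0.18. SRSF3, a close relative of SRSF7, was between -0.41 and 0.07 with a mean of -0.09, and at 0.02 without the 24 h array against no siRNA. SRSF4 was at 1.13 at 8 h and at -0.05, -0.13 and -0.45 on the other arrays. Its mean of 0.13 thus rested on 1 array and was -0.21 without it.

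HNRNPD, also known as AUF1, was the 1 of 12 tested hnRNP genes that fell. It was at -0.45 and -0.22 against control siRNA and at -0.43 and -0.57 against no siRNA, early array first. The 4 arrays were close together, with a mean of -0.42 (limma SE 0.09, adjusted p = 0.0232; 74.9% of control). HNRNPA1, a splicing repressor, was below 0 on each array, from -0.11 to -0.53, and just missed the threshold with a mean of -0.31 (limma adjusted p = 0.0554). HNRNPC, which binds runs of U, had the same sign on 4 of 4 arrays and a mean of -0.30 (adjusted p = 0.0904 in limma). The other 9 lay between -0.13 (HNRNPM) and 0.15 (HNRNPH3). HNRNPH3 was above 0 on each array, between 0.07 and 0.20, and did not pass (adjusted p = 0.216 in limma). HNRNPM, HNRNPK, HNRNPH1, HNRNPL, HNRNPLL, HNRNPA2B1, HNRNPA1L2 and HNRNPUL2 had values on both sides of 0. HNRNPA1L2 is a copy of HNRNPA1 and may share its signal.

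A pair of hnRNP genes had values on fewer than 4 arrays and stayed outside the main test. HNRNPU, a scaffold protein of the nuclear matrix, was at -0.68 (8 h) and -0.78 (24 h) against control siRNA, with no value against no siRNA. Its mean of -0.73 is as low as that of PRPF38B, but rests on 1 kind of control. In a limma fit over the 8509 rows with at least 2 values it passed (adjusted p = 0.0316), as did 9.23% of those rows, 6.23% lower and 3% higher. HNRNPA1P70, a pseudogene of HNRNPA1, was at 0.27, 0.40 and 0.71 on 3 arrays, opposite in sign to HNRNPA1, and did not pass in that fit (adjusted p = 0.0519 in limma).

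The U2AF, SF3B and SNRP genes held no call. U2AF2, the large U2AF subunit that binds the polypyrimidine tract, averaged 0.18 and U2AF1, the small subunit that reads the AG at the intron end, 0.11. SF3B4, of the branch site complex, averaged -0.16. SNRPA, a protein of the U1 snRNP, was at 0.05 and -0.02 on the early arrays and at -0.49 and -0.68 at 24 h. The difference between these times did not pass (limma adjusted p = 0.24). The mean of SNRPA was -0.29 (limma adjusted p = 0.145), and -0.15 with the 24 h array against no siRNA left out. With time and control as terms SNRPA passed (limma adjusted p = 0.0255), as did 29.1% of all rows. That fit had 1 residual degree of freedom and took differences by time and control out of the error. A pass in it does not mean a fall on each array. DDX6, HNRNPA1, PRPF4 and SRSF7 were among the other genes that missed the main test and passed with these terms. SNRPN, which encodes the Sm protein SmN, averaged -0.14.

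Several of these means hid features of opposite sign. Of the 12 genes with several features, 8 had feature means on both sides of 0, and 2 of them, ALYREF and SNRPN, beyond 0.2 each way. The first ALYREF feature was at 0.09 and 0.54 against control siRNA and at 1.08 and 0.99 against no siRNA, early array first, with a mean of 0.68. The second was at -0.67, -0.39 and -0.41, with no value on the 6 h array, and a mean of -0.49. The gene value on the 6 h array, 1.08, was therefore that of 1 feature by itself. The direction of ALYREF is not settled by these values.

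The 4 SNRPN features averaged -0.39, -0.36, -0.08 and 0.27. U2AF1 had 1 feature at 0.41 and 1 at -0.20, U2AF2 1 at 0.46 and 1 at -0.16, and SF3B4 1 at -0.41 and 1 at 0.10. When each feature with 4 values was tested by itself in limma, 11 of 56 were lower and 4 higher (19.4% of 10161 features passed, 12.3% lower and 7.09% higher). The 4 higher were that of DHX36 and 1 each of ALYREF, U2AF1 and U2AF2. Among the lower were 2 of 6 features of SRSF7 and 1 each of SF3B4 and SNRPN. Features of 1 gene share the same RNA and are not replicates, and the feature means of PRPF31, HNRNPM, DDX1 and SRSF7 lay on 1 side of 0.

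**Figure D3:**
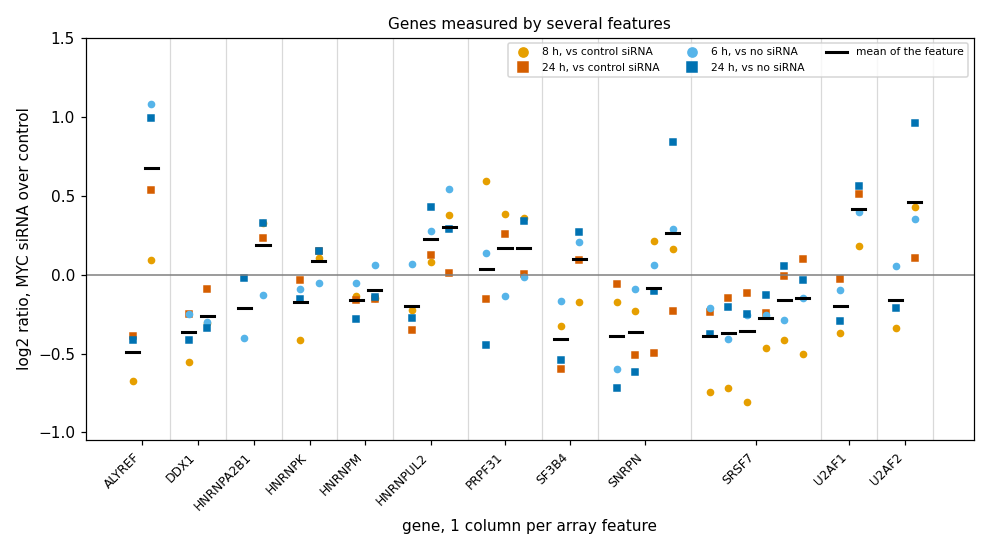
Log2 ratio of MYC siRNA over control (y axis) for the 12 genes with several features (x axis), 1 column per feature, 1 point per array and a black bar for the mean of the feature. The 2 features of ALYREF lie apart, at means of 0.68 and -0.49, while the 6 of SRSF7 all average below 0.

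Whether the genes moved with time was tested as the difference between the 2 arrays at 24 h and the 2 early ones (6 h and 8 h), with the kind of control as a second term. None of the 40 passed in limma (0.118% of all rows did, 0.0883% lower and 0.0294% higher). At an unadjusted p under 0.05, 8 were lower at 24 h and 1 higher (10.1% of all rows, 6.08% lower and 4.03% higher). DHX15 was nearest, with a mean of -0.32 on the early arrays and -1.24 at 24 h, a difference of -0.92 (limma SE 0.18, adjusted p = 0.053). SRSF4 (-0.75), THOC2 (-0.69) and SNRPA (-0.60) followed, then PRPF38B (-0.60) and THOC1 (-0.58). For SRSF4 and THOC2 this came with their high values on the 8 h array. The largest differences the other way were 0.41 for DDX5, 0.36 for DHX57, 0.31 for HNRNPL and 0.30 for SRSF7. This fit had 1 residual degree of freedom, so its errors rest mostly on the spread pooled over all rows. With each array centred on its median DHX15 and SRSF4 passed (0.897% of all rows did), with features complete on all arrays DHX15 (0.385%), and with the median of features DHX15, SRSF4 and THOC2 (1.44%).

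**Figure D4:**
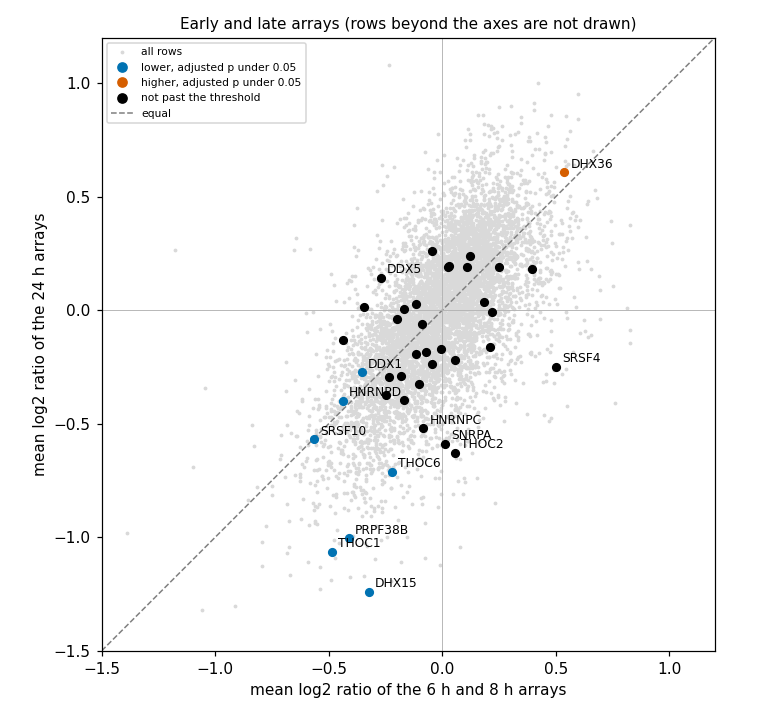
Mean log2 ratio at 24 h (y axis) against that of the 6 h and 8 h arrays (x axis) for the tested genes except DDX3Y over all rows in grey, coloured by the MYC siRNA test; the dashed line marks equal values. DHX15, THOC1, PRPF38B and THOC6 lie below the line, and SRSF10, HNRNPD, DDX1 and DHX36 near it.

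The ratio against control siRNA was also set against that with no siRNA, with time as the second term. None of the 40 genes passed in limma (0.0883% of all rows did, all of them higher against control siRNA). At an unadjusted p under 0.05, 1 was lower and 4 were higher against control siRNA (10.1% of all rows, 3.69% lower and 6.38% higher). SRSF4 differed most (0.54 against control siRNA and -0.29 against no siRNA; adjusted p = 0.105 in limma), through its 8 h value. ALYREF differed in the other direction (-0.11 and 0.69, limma adjusted p = 0.136), and 1 of its 2 features had no value on the 6 h array. The feature with 4 values was at 0.09 and 0.54 against control siRNA and at 1.08 and 0.99 against no siRNA, early array first. Next were DHX57, at 0.15 and -0.48, DHX15, at -0.49 and -1.07, and THOC1, at -0.53 and -1.02. DHX36 was at 0.39 against control siRNA and 0.76 against no siRNA, HNRNPL at -0.05 and 0.26, and DHX9 at -0.39 and -0.09. The kind of control goes with a separate range of array identifiers, and the 2 cannot be told apart. The early array was at 8 h with control siRNA and at 6 h without siRNA, so that the early share of this difference and that of 8 h against 6 h cannot be told apart either. With arrays centred SRSF4 and ALYREF passed (1.31% of all rows did), and with the median of features the same 2 (2.38%).

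Other genes of RNA processing and nuclear transport, and other helicases, were taken from lists of symbols outside the families above. Not all of them act on RNA. Of 261 listed, 85 were tested, of which 13 fell (15.3%, against 10.2% of all rows), 1 rose (1.18%, against 5.56%) and 71 did not pass, with a median of -0.07. Among 19 further spliceosome genes 4 fell (median -0.13): LSM8 (-0.53 ± 0.13), of the ring that binds U6, BUD31 (-0.51 ± 0.35), HTATSF1 (-0.46 ± 0.10), a partner of SF3B1, and CWC15 (-0.31 ± 0.14; SD, n = 4 each). Of 27 splicing regulators and kinases 3 fell (median -0.02): SRPK1 (-0.40 ± 0.14), the kinase that phosphorylates SR proteins, SFPQ (-0.39 ± 0.20) and ILF2 (-0.38 ± 0.20). In nuclear export and cap binding 2 of 11 fell (median -0.23): the exportin gene XPO1 (-0.52 ± 0.34) and CSE1L (-0.37 ± 0.11), which recycles importin alpha.

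In 3′ end formation CSTF3 fell (-0.58 ± 0.31) and 5 of 6 genes did not pass (median -0.18). Among 13 RNA decay genes the exosome gene EXOSC5 (-0.54 ± 0.25) and ZFP36L2 (-0.38 ± 0.21) fell, while ZFP36 rose (0.32 ± 0.07). ZFP36 and ZFP36L2 encode related proteins that bind AU-rich mRNA and speed its decay. Of 6 helicases outside the DDX and DHX families MTREX, of the nuclear exosome, fell (-0.67 ± 0.29; median of the 6 -0.05). None of 3 exon junction genes passed (median 0.09; 0 at an unadjusted p under 0.05 in limma), and of the genes that assemble snRNPs 0 of 16 listed had 4 values. Adjusted p in limma for the genes named lay between 0.0173 (LSM8, MTREX) and 0.0456 (CWC15). Without single arrays 0 to 6 of the 85 passed.

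**Figure D5:**
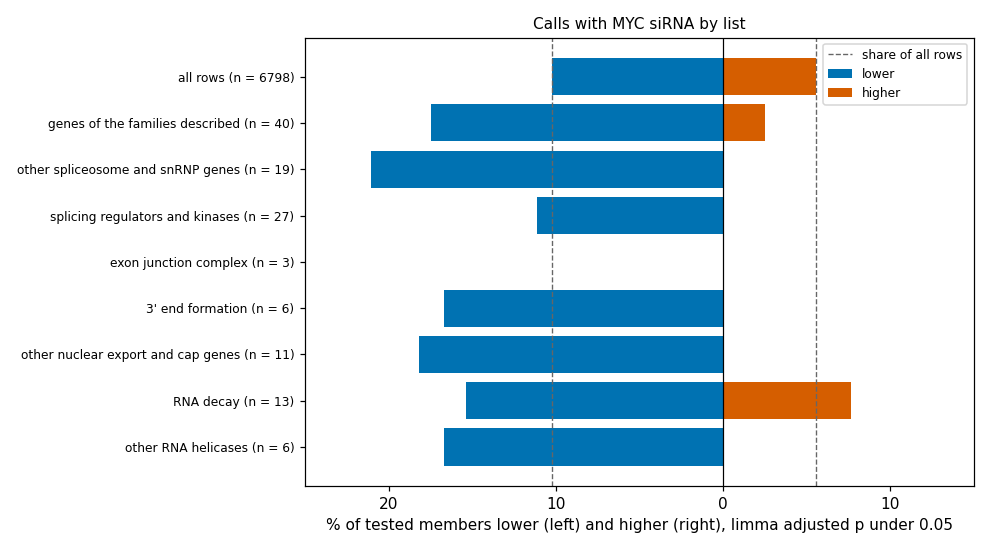
Share of tested genes lower (left) and higher (right) with MYC siRNA at an adjusted p under 0.05 in limma (x axis, %), for all rows, the 40 tested genes and 7 lists of related genes (y axis, number tested in parentheses); dashed lines mark the shares of all rows. Most lists hold under 20 genes, so that 1 gene moves a bar by several percent.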

How the data were processed

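The deposited values were log ratios processed by the authors, 1 per feature and array, and are taken here as log2. Base, direction, background correction and normalization were not given in the sources used here. Per the labels, 50 ug of total RNA was reverse transcribed with oligo dT and labelled. Symbols came from the platform annotation, matched by Entrez ID to RefSeq (GRCh38.p14) for 10124 features, which changed 0 symbols. A gene's value on an array was the mean of its features that had one. Tests used limma 3.58.1 (lmFit, eBayes) in R 4.3.3 over 6798 rows with 4 values and Benjamini-Hochberg adjustment, with 3 residual degrees of freedom for MYC siRNA and 1 for time and control kind (prior 6.31 and 17.5). The code was tested on simulated data.

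No label tells whether the arrays came from separate cultures; p-values therefore reflect only how these arrays vary, which may be technical. The number of arrays limits precision: limma's SE of the 40 genes had a median of 0.0996. The genes, lists and tests were chosen with earlier results of these data known. Named were all genes that passed, the extremes of each family, of time and of control, genes with features beyond 0.2 each way, and those on 2 or 3 arrays with 1 sign and a mean beyond 0.3. Other family members and features are named so that each gene is accounted for, chosen after their values were seen. Alternatives covered scaling, feature averaging, missing values, moderation, the model and left-out arrays. Protein sequences were not used here.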

Additional observations from a re-analysis of the deposited data

Results flagged for a closer look

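HNRNPL, which binds CA repeats, stood at -0.31 on the 8 h array against control siRNA and between 0.22 and 0.31 on the other 3. Dixon's test at 95% marked this value as far from the others, the 1 of 40 genes so marked (2.5%; 5.66% of all rows). About 1 in 20 is marked by chance.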

How the results depend on the processing

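The count of 8 genes changed with MYC siRNA was 14 with time and control as terms (29.1% of all rows passed), 15 of 56 over single features (19.4%), 9 with scaled arrays (18.6%), 10 with features complete on all arrays (17.4%; 7 lower and 3 higher, ALYREF and U2AF2 with DHX36), 7 of 42 over rows with at least 2 values (9.23%) and 8 in the 4 other settings that kept all arrays; with arrays left out in turn it ran from 0 to 6. The median over the genes stayed between -0.161 (single features) and -0.111 (arrays centred). DDX1 and THOC6 missed the threshold over rows with at least 2 values (limma adjusted p = 0.0573 and 0.0551). The other 6 passed in each of 8 settings that kept all arrays, but not all of these could alter them. Those 6 genes have 1 feature each, so the median of features and complete features left their values unchanged. The platform symbols differed in 0 symbols and repeated the main fit. For time, the count of 0 was 2 with arrays centred (0.897% of all rows passed), 1 with features complete on all arrays (0.385%) and 3 with the median of features (1.44%). For control kind it was 2 with arrays centred (1.31%) and 2 with the median of features (2.38%). These fits have 1 residual degree of freedom, and leaving out an array leaves none. The 14 related genes that passed were 22 with time and control as terms (29.1% of all rows passed), and 0 to 6 with arrays left out (0% to 6.49% of all rows). MYC ranged from -1.08 to -0.77 with arrays left out, and missed the threshold without the 6 h array (limma adjusted p = 0.053). With an array left out the mean of 7 of the 40 genes turned sign, none of them past the threshold: DDX5 (0.029; range -0.165 to 0.029), PRPF31 (-0.007; up to 0.158) and SRSF4 (-0.21; up to 0.319) without the 8 h array, and SRSF3 (0.019; down to -0.141) when the 24 h array against no siRNA was dropped, and HNRNPLL, HNRNPA1L2 and DDX12P. The cause of these shifts was not tested. Genes with several features have no single value over single features. Alternatives for MYC and the related genes were added after seeing the data. Each ratio already pairs MYC siRNA RNA with its control RNA on the same array. No pairing between arrays was possible because they carry numbers in order of listing only. Signal over background is unknown.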
